A study of Homo sapiens with 3 samples.

Results

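The genes described here lie side by side in band 17q12 on the long arm of chromosome 17. They are the rows of the deposited table on chromosome 17 that fall inside one window chosen by position. The window was chosen because its genes stood higher in the dual-resistant library, so that library's values, set against the other libraries, are what picked the members. Symbols beginning with RPL, SLC or LINC and symbols with a hyphen were left out by the rule, which removed 4 of 162 rows. The other 158 rows gave 154 genes of 30866 in the table, and they run from 33426811 to 37844310 on GRCh37. Of the 154 members, 83 were listed at 0 in all 3 libraries, 26 were above 0 but under 1 FPKM in all 3, and 45 reached 1 FPKM in at least 1 library. FPKM scales the fragments of a gene by its transcript length and by the number of fragments mapped in the library. The members at 0 include 61 of the 64 entries with no Entrez gene ID. Counts and medians below are over the 45 genes that passed, which are not all members, and 41 of them reached 1 FPKM in every library. CCL5 and RDM1 reached it in the dual-resistant library alone, RDM1 with 1.002, 0.905 and 0.475 FPKM in the dual-resistant, erlotinib-resistant and vehicle libraries.

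RNA sequencing was carried out on 3 populations of HCC827, an established cell line of human lung adenocarcinoma that carries a mutated, active EGF receptor. The cells of all 3 populations carry ClonTracer DNA barcodes and descend from the same polyclonal pool. The dual-resistant population had been treated with 2 µM erlotinib, which blocks the EGF receptor kinase, and 0.2 µM crizotinib, which blocks MET and a few other kinases, for 10 days, and was derived from the erlotinib-resistant population. The erlotinib-resistant population had been kept in 2 µM erlotinib for 47 days, and the vehicle population in 0.1% DMSO for 4 days. There was 1 library per population, so no value here has a replicate, an SD or a test, and drug, duration and resistance cannot be told apart. A difference is called higher or lower only by size, at 2-fold or more on the FPKM + 1 scale, which is a log2 difference of 1 and understates the change of low genes. The libraries differed in depth: by an estimate from single-exon genes, a 1-kb gene at 1 FPKM had about 43.1 fragments in the dual-resistant, 46.9 in the erlotinib-resistant and 67.1 in the vehicle library. The epithelial markers EPCAM, KRT8, KRT18, KRT19 and CDH1 were all present, with summed levels of 1782, 3366 and 3675 FPKM in the dual-resistant, erlotinib-resistant and vehicle libraries. EPCAM had 41.1 FPKM in dual-resistant, 345 in erlotinib-resistant and 306 in vehicle cells, and whether this bears on the 17q12 genes was not tested. Blood cell markers summed to 0.625, 0.734 and 4.12 FPKM in the same libraries, mostly CD14, with the T cell marker CD3E at 0 in all 3, and endothelial markers to 0.195, 0.194 and 1.3 FPKM.

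Band 17q12 is best known in cancer for ERBB2, the receptor tyrosine kinase gene that is amplified with its neighbours in many breast and gastric tumours, and ERBB2 begins just past the upper end of the window. The region below it, around LHX1 and ACACA, is flanked by repeated sequence that holds the TBC1D3 genes and is known from recurrent germline deletions and duplications. Its genes have no single function: they include a cluster of schlafens, which are interferon-inducible regulators, a cluster of CC chemokines, and single genes for transcription, RNA processing, lipid synthesis, the cytoskeleton and the proteasome. RNA levels were measured here, and DNA copy number was not analysed.

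Promoters are shown first, because the members are described as neighbours that stood higher together and their start regions can be compared. RefSeq sequence was matched by Entrez ID for 32 of the 45 genes, and 13, among them SRCIN1 and DDX52, had no entry. The 250 bases before the gene start are given on GRCh38.p14, a later build than that of the table, and where a gene had several starts the one listed first was used. Shown are the 3 genes with a promoter entry that had the largest dual-resistant against erlotinib-resistant difference, and PGAP3, the last member along the window, which did not stand higher. Capitals mark GC boxes (GGGCGG, or CCGCCC on the other strand), the only one of the 3 motifs searched that occurs in them.
DUSP14 promoter, chr17:37489641-37489890, plus strand: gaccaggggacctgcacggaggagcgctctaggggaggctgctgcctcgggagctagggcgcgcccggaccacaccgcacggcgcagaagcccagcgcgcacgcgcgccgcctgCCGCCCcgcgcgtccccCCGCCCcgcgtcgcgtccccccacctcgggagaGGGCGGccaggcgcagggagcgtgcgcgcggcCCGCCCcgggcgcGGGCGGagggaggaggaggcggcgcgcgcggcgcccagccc
ARHGAP23 promoter, chr17:38428214-38428463, plus strand: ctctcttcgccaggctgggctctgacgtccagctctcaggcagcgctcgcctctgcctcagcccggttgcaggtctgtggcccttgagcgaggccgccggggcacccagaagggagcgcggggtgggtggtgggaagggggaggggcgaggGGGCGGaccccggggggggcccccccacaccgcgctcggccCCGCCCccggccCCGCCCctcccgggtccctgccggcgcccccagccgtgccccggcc
ACACA promoter, chr17:37406837-37407086, minus strand: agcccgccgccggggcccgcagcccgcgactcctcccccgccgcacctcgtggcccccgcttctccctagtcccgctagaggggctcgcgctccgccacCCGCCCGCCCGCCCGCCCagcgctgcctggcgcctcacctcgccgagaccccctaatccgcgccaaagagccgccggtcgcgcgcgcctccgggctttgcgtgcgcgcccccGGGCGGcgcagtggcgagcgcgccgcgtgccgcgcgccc
PGAP3 promoter, chr17:39688058-39688307, minus strand: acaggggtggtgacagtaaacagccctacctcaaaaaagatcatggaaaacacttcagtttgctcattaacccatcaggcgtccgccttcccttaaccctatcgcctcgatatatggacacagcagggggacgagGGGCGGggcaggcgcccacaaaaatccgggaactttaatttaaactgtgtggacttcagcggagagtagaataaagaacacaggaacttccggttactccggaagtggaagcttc
The DUSP14, ARHGAP23 and ACACA promoters held 5, 3 and 5 GC boxes, with some of those in ACACA overlapping, and were 82.8%, 79.6% and 81.6% G and C. The PGAP3 promoter held 1 GC box and was 50.4% G and C. Over the members with a sequence, all of which reached 1 FPKM, 23 of 32 held a GC box. Of all 27305 promoters searched in the same way, with no filter on level, 42.3% held one. Among members higher by 2-fold in the dual-resistant than in the erlotinib-resistant library the count with a GC box was 10 of 11, and among the rest 13 of 21. This split uses the values that placed the window and leaves out the 13 genes with no entry, so it is a description only. A CCAAT box (CCAAT or ATTGG) was found in 8 of 32 members, against 33.0% of all promoters. A TATA box (TATAAA or TTTATA) was found in 0 of 32, against 11.1% of all. For all 3 motifs the members were filtered on level and the promoters beside them were not. The sets are therefore unlike, and the shares do not show a trait of this window. No share over the other genes that reached 1 FPKM was taken. The motif counts are matches of letters and say nothing of whether a factor binds there. Whether promoter sequence bears on the levels was not tested.

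In the dual-resistant library the 17q12 genes stood higher than in the erlotinib-resistant library by a median log2 difference of 0.65, against -0.03 for all genes. By 2-fold or more, 15 of the 45 were higher and 1 was lower, where 10.1% of all 13385 genes compared were higher and 7.22% lower. These counts describe what the window was chosen on and are read no further. In RNA from a whole population, more cells with a transcript and more of it per cell cannot be told apart. The median level of the 45 genes was 20.4 FPKM for dual-resistant, 15.5 for erlotinib-resistant and 10.0 for vehicle cells. Their summed level was 2267 FPKM in the dual-resistant library, against 1177 in the erlotinib-resistant and 1138 in the vehicle library, which is 0.459%, 0.223% and 0.192% of each library's sum with all 154 members counted. The dual-resistant library held the highest of the 3 values for 31 of the 45 genes and the lowest for 7. These 2 counts also rest on the values that placed the window, and no share over all genes is set beside them.

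**Figure D1:**
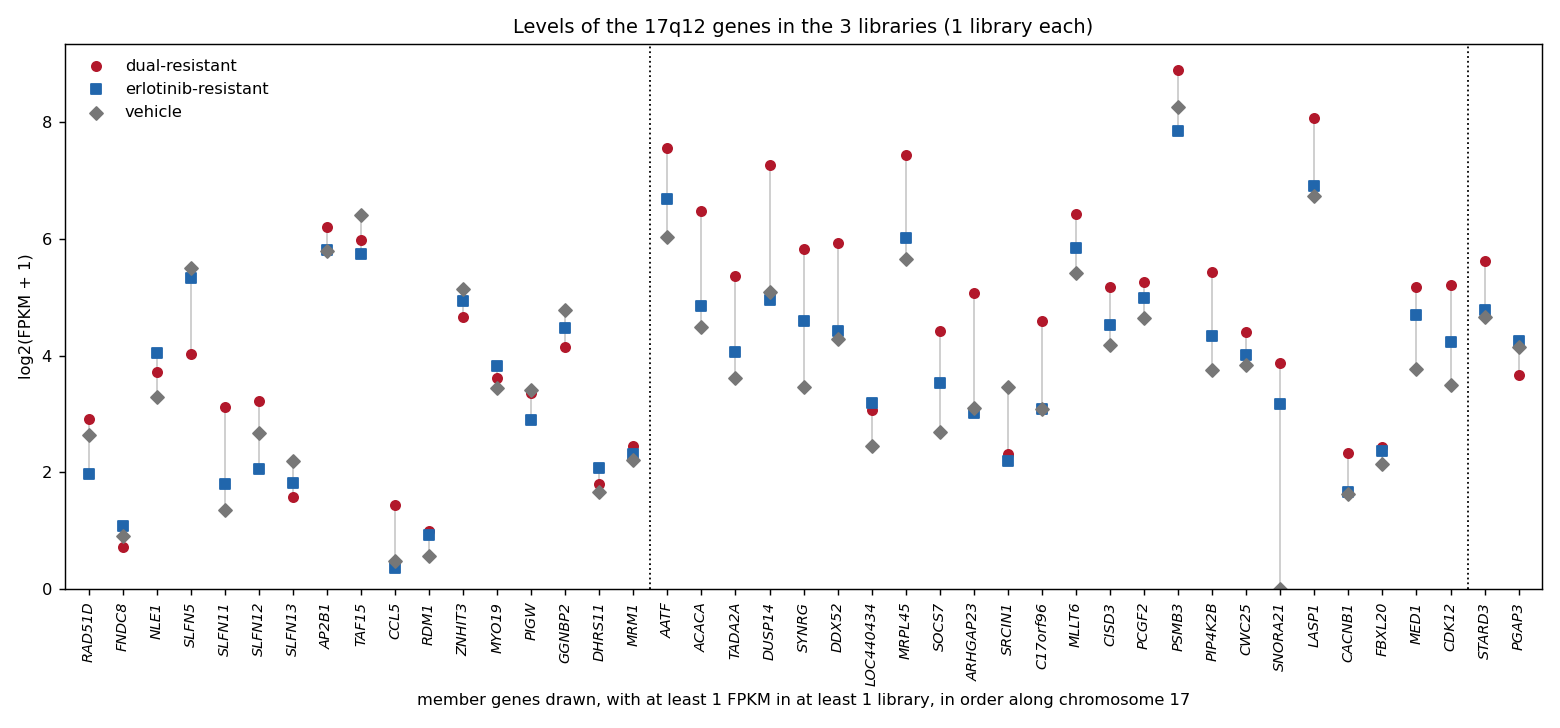
Level of members that passed, as log2(FPKM + 1), in the dual-resistant (circles), erlotinib-resistant (squares) and vehicle (diamonds) libraries, in order along chromosome 17, with a grey line joining the lowest and highest value of a gene. Dotted lines bound AATF to CDK12, where the dual-resistant library (circles) is the highest for nearly every gene drawn.

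The higher values were not spread evenly over the window. Along the chromosome the 45 genes fell into 18 from RAD51D to MRM1, 25 from AATF to CDK12 and 2 beyond, a split made after the values were seen. From AATF to CDK12, which spans 2384626 bases, 24 of 25 genes were above the erlotinib-resistant library in the dual-resistant library, 12 of them by 2-fold or more, and the median log2 difference was 0.98. From RAD51D to MRM1, 9 of 18 were above and 9 below, 3 were higher and 1 lower by 2-fold, and the median was 0.03. Of all 13385 genes compared, 6398 were above. Between these stretches, from the end of MRM1 to the start of AATF, lie 340767 bases with no gene that reached 1 FPKM. The summed level of the members from AATF to CDK12 was 1946 FPKM in the dual-resistant library, against 877 in the erlotinib-resistant and 799 in the vehicle library, which is 2.22 and 2.43 times those. These sums leave out RPL23 and RPL19, ribosomal protein genes of the stretch that each outweighed the 25 members together. RPL23 stood at 3919, 2699 and 1873 FPKM in the dual-resistant, erlotinib-resistant and vehicle libraries, and RPL19 at 4354, 3917 and 4123 FPKM. RPL19 was near level, at log2 differences of 0.15 and 0.08 in the dual-resistant against the erlotinib-resistant and vehicle libraries. The ratios hold for the members alone. From RAD51D to MRM1 the sums were 262, 255 and 298 FPKM in the dual-resistant, erlotinib-resistant and vehicle libraries, which lie close together.

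Of 4 signalling genes that passed, 2 were higher than in the erlotinib-resistant library by 2-fold, DUSP14 and PIP4K2B. DUSP14, a dual-specificity phosphatase that acts on MAP kinases (Entrez ID 11072, 35849951 to 35873588), had 152 FPKM in dual-resistant cells, 30.0 in erlotinib-resistant cells and 33.1 in vehicle cells. The dual-resistant value alone was high, 4.95-fold above the erlotinib-resistant library, the largest difference of any member. PIP4K2B, a kinase of phosphoinositides, stood at 42, 19.1 and 12.5 FPKM in the dual-resistant, erlotinib-resistant and vehicle libraries. SOCS7, an adaptor of the suppressor of cytokine signalling family, stood at 20.4, 10.5 and 5.48 FPKM in the same order. For both of these genes the 3 libraries were stepped, with the erlotinib-resistant value between the others. CACNB1, a subunit of voltage-gated calcium channels, stood at 4.05, 2.15 and 2.11 FPKM in the dual-resistant, erlotinib-resistant and vehicle libraries and lay within 2-fold. None of the 4 was lower by 2-fold. Here and in the lists that follow, the counts come from the comparisons that picked the window and are a description only, beside the 10.1% of all genes that were higher than in the erlotinib-resistant library.

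Of 11 genes of transcription and chromatin that passed, 2 were higher than in the erlotinib-resistant library and none lower, with a median log2 difference of 0.47. CWC25 is counted both in this list and among the genes of RNA processing. TADA2A, an adaptor of a histone acetyltransferase complex, stood at 40.1, 15.7 and 11.3 FPKM in the dual-resistant, erlotinib-resistant and vehicle libraries. AATF, a nucleolar protein first known as an antagonist of apoptosis, stood at 187, 102 and 64.6 FPKM in the same order, and CDK12, a kinase of the tail of RNA polymerase II, at 36.1, 17.8 and 10.3 FPKM. AATF and CDK12, near the ends of the stretch they bound, were 1.83-fold and 1.97-fold higher than in the erlotinib-resistant library, just short of the limit, and 2.87-fold and 3.29-fold higher than in the vehicle library. CDK12 passed the limit against the erlotinib-resistant library after scaling to equal library sums, at a log2 difference of 1.07, and with scaling by the median ratio, at 1.02. MED1, a subunit of Mediator, stood at 35.0, 25 and 12.6 FPKM in the dual-resistant, erlotinib-resistant and vehicle libraries, and MLLT6, a chromatin reader fused to MLL in leukaemia, at 85.2, 56.1 and 41.7 FPKM. The Polycomb gene PCGF2 stood at 37.5, 30.6 and 23.9 FPKM in the same order, and was within 2-fold in all comparisons. C17orf96 (now EPOP), a partner of Polycomb complex PRC2, was in no list and stood at 23.3, 7.53 and 7.47 FPKM in the dual-resistant, erlotinib-resistant and vehicle libraries, 2.84-fold above the erlotinib-resistant library.

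Among the genes of metabolism, RNA and protein handling, ACACA, the acetyl-CoA carboxylase that starts fatty acid synthesis (Entrez ID 31, 35441927 to 35766902), had 88.6 FPKM in dual-resistant cells, 27.8 in erlotinib-resistant cells and 21.4 in vehicle cells. It was 3.11-fold above the erlotinib-resistant library, the largest difference in the list of metabolism and lipid anchors, of which 1 of 5 was higher and none lower. CISD3, a mitochondrial iron-sulphur protein, stood at 35.2, 22.1 and 17.2 FPKM in the dual-resistant, erlotinib-resistant and vehicle libraries. DDX52, an RNA helicase of ribosome assembly, stood at 59.9, 20.5 and 18.5 FPKM in the same order, and was the only one of 4 genes of RNA processing to pass the limit. MRPL45, a protein of the mitochondrial ribosome that was in no list, stood at 173, 63.4 and 49.6 FPKM in the dual-resistant, erlotinib-resistant and vehicle libraries, 2.70-fold above the erlotinib-resistant library. PSMB3, a beta subunit of the proteasome core, had the highest level of any member, with 475, 230 and 305 FPKM in the dual-resistant, erlotinib-resistant and vehicle libraries. Its vehicle value lay above its erlotinib-resistant value, unlike most neighbours, so it was 2.06-fold higher against the erlotinib-resistant library and 1.55-fold higher against vehicle. FBXL20, a substrate receptor of a ubiquitin ligase, stood at 4.40, 4.14 and 3.43 FPKM in the dual-resistant, erlotinib-resistant and vehicle libraries and differed little, although it lies inside the stretch.

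In the cytoskeleton and membrane traffic lists, ARHGAP23, a GTPase-activating protein of the cytoskeleton (Entrez ID 57636, 36584720 to 36668628), had 32.5 FPKM in dual-resistant cells, 7.05 in erlotinib-resistant cells and 7.62 in vehicle cells, a 4.17-fold difference from the erlotinib-resistant library. Its next expressed neighbour SRCIN1, an inhibitor of Src kinase that starts 17630 bases after ARHGAP23 ends, stood at 4.00, 3.58 and 10.0 FPKM in the dual-resistant, erlotinib-resistant and vehicle libraries. The 2 neighbours thus went different ways: SRCIN1 was level between the resistant libraries and highest in vehicle. LASP1, an actin-binding protein of focal adhesions, stood at 268, 119 and 105 FPKM in the dual-resistant, erlotinib-resistant and vehicle libraries, and was 2.24-fold above the erlotinib-resistant library. SYNRG, a partner of the clathrin adaptor AP-1, stood at 55.7, 23.1 and 10.0 FPKM in the same order, and STARD3, a cholesterol-binding protein of late endosomes, at 48.0, 26.6 and 24.2 FPKM. STARD3 lies past CDK12 and was 1.78-fold above the erlotinib-resistant library. AP2B1, a large subunit of the clathrin adaptor AP-2 in the lower stretch, stood at 73.1, 55.2 and 54.3 FPKM in the dual-resistant, erlotinib-resistant and vehicle libraries and was within 2-fold in all comparisons.

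The schlafens, which lie near the lower end, went both ways. SLFN5 had 15.4 FPKM in dual-resistant cells, 39.2 in erlotinib-resistant cells and 44.1 in vehicle cells, and was the only member lower by 2-fold against the erlotinib-resistant library, by 2.46-fold. SLFN11, known for sensitising cells to DNA-damaging drugs, stood at 7.70, 2.48 and 1.55 FPKM in the dual-resistant, erlotinib-resistant and vehicle libraries, and SLFN12 at 8.37, 3.15 and 5.39 FPKM in the same order. SLFN13 stood at 1.98, 2.53 and 3.58 FPKM. So 2 of the 4 schlafens that passed were higher and 1 lower than in the erlotinib-resistant library by 2-fold. Of 11 CC chemokine genes, 8 were listed at 0 in all 3 libraries, and CCL5, a T cell attractant, alone passed, at 1.72, 0.289 and 0.396 FPKM in the dual-resistant, erlotinib-resistant and vehicle libraries. Since only its dual-resistant value passed 1 FPKM, CCL5 could not have counted as lower. The recombination gene RAD51D stood at 6.54, 2.93 and 5.23 FPKM in the dual-resistant, erlotinib-resistant and vehicle libraries, with the erlotinib-resistant library the lowest, and lay within 2-fold as deposited but past it against the erlotinib-resistant library with equal library sums, at a log2 difference of 1.03.

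The other genes of the lower stretch differed little. TAF15, an RNA-binding protein of the FET family, stood at 62.3, 52.2 and 83.9 FPKM in the dual-resistant, erlotinib-resistant and vehicle libraries, and NLE1, a ribosome assembly factor, at 12.2, 15.5 and 8.83 FPKM. GGNBP2, named for its binding to gametogenetin, stood at 16.8, 21.1 and 26.5 FPKM in the same order, and FNDC8, a fibronectin-domain protein, at 0.648, 1.12 and 0.880 FPKM. PIGW, an enzyme of GPI anchor synthesis, stood at 9.22, 6.42 and 9.67 FPKM in the dual-resistant, erlotinib-resistant and vehicle libraries. In NLE1, GGNBP2 and FNDC8 the dual-resistant library lay below the erlotinib-resistant one, and these, with SLFN5 and PGAP3, had the 5 lowest differences among the members. FNDC8 reached 1 FPKM in the erlotinib-resistant library alone, so its lower dual-resistant value follows from the filter. ZNHIT3, MYO19, DHRS11 and MRM1, also in this stretch, were all within 2-fold. Among them, levels in the dual-resistant library lay between 2.50 FPKM for DHRS11 and 24.3 FPKM for ZNHIT3.

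**Figure D2:**
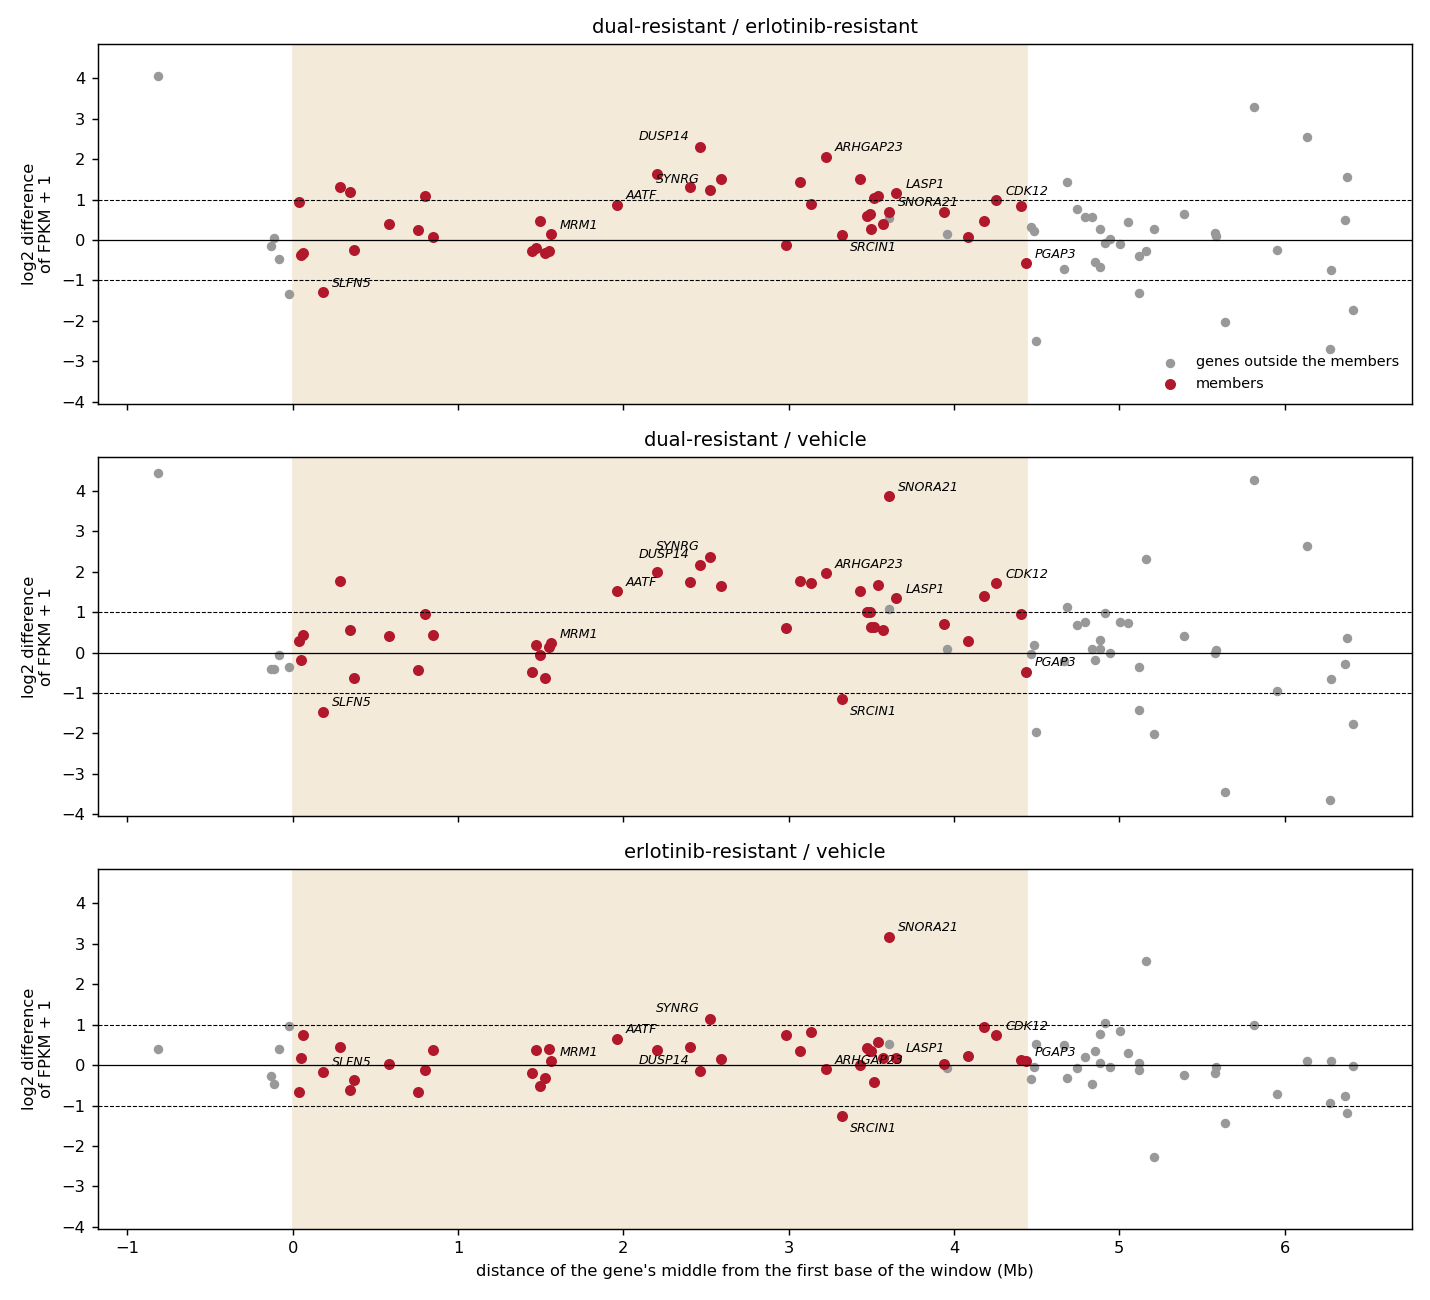
Log2 difference of FPKM + 1 for genes in and around the window that reached 1 FPKM in any library, against the distance of its middle from the first base of the window in Mb, with members in red, other genes in grey, the window shaded and the 2-fold limits dashed. The grey points inside the window are genes left out by the rule, and SNORA21 is listed at 0 for vehicle. Between AATF and CDK12 nearly every member drawn lies above 0 for the dual-resistant against either other library, with DUSP14 and ARHGAP23 the highest of those drawn against the erlotinib-resistant library, while SRCIN1 stays at a log2 difference of 0.13 in that comparison.

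Against the vehicle library the same stretch stood higher in the dual-resistant library by a wider margin. Of the 45 genes, 18 were higher and 2 lower by 2-fold, where 11% of all 13378 genes compared were higher and 10.4% lower. The median log2 difference was 0.64, against -0.01 for all genes. Of the 18 higher, 17 lie from AATF to CDK12, where the median was 1.52, and the remaining gene is SLFN11. SNORA21, a small nucleolar RNA inside RPL23, is counted among the 17: it had 13.7 FPKM in the dual-resistant and 8.02 in the erlotinib-resistant library and is listed at 0 for vehicle, so no fold is given. SYNRG was 5.14-fold, DUSP14 4.49-fold and ACACA 4.00-fold higher than in the vehicle library. Lower were SLFN5 and SRCIN1. SRCIN1 came within the limit with equal library sums, at a log2 difference of -0.91. Scaling to equal sums moved the median of all genes by 0.24 in this comparison and the share of higher genes among all calls to 66.1%, against 51.3% as deposited, and it gave 21 members higher and 1 lower. Both comparisons share the dual-resistant library and are not independent of each other.

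The erlotinib-resistant library against the vehicle library is the comparison that leaves out the dual-resistant library. Its libraries are those that the dual-resistant values stood above when the window was chosen, so it is not free of that choice and is a description only. The dual-resistant library also shaped the genes counted, since CCL5 and RDM1 passed the filter through it alone and the split by position was made after its values were seen. FNDC8 passed through the erlotinib-resistant library alone, so its difference above 0 here follows from the filter. Here 2 of 45 members were higher and 1 lower by 2-fold, against 3.81% of all 13381 genes higher and 6.03% lower, which for the higher genes is near the background. The 2 higher were SYNRG, at 23.1 FPKM in the erlotinib-resistant library against 10.0 in the vehicle library, a 2.19-fold difference, and SNORA21. The lower gene was SRCIN1, at 3.58 FPKM against 10.0, by 2.40-fold. Without SNORA21, which is listed at 0, 1 member was higher. The median log2 difference of the 45 was 0.17, against 0.00 for all genes, and it was 0.34 from AATF to CDK12, where 21 of 25 genes lay above 0. SNORA21 is among the 21, and of all 13381 genes 6697 lay above 0. From RAD51D to MRM1 the median was -0.14, with 8 of 18 above 0. With equal library sums the median of all genes moved by 0.14 and that of the 45 members to 0.30, and the share of higher genes among all calls became 53.7%, against 38.7%. MED1 was 1.91-fold higher as deposited and passed the limit with equal sums, at a log2 difference of 1.10. SOCS7 was 1.77-fold and NLE1 1.68-fold higher. TAF15 was at 52.2 FPKM in erlotinib-resistant cells against 83.9 in vehicle cells, and PIGW at 6.42 against 9.67. Several genes that were far apart in the dual-resistant comparisons were level here: DUSP14, ARHGAP23 and C17orf96 had log2 differences of -0.14, -0.10 and 0.01. In all, 25 of the 45 genes were ordered with the dual-resistant library highest and vehicle lowest, 20 of them among the 25 from AATF to CDK12. This ordering uses the dual-resistant values that placed the window and a split made after they were seen. It is a description only, with no share over all genes to set beside it.

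At the lower end of the window there was no step. The last genes outside it were ZNF830, LIG3 and RFFL, with log2 differences of the dual-resistant against the erlotinib-resistant library of 0.05, -0.46 and -1.33. The nearest members inside were RAD51D, FNDC8 and NLE1, with 0.94, -0.36 and -0.32. At the upper end, CDK12, STARD3 and PGAP3 inside had 0.98, 0.83 and -0.58, and ERBB2, MIEN1 and GRB7 outside had 0.32, 0.22 and -2.50. PGAP3, an enzyme that remodels GPI anchors, had 11.8 FPKM in dual-resistant cells, 18 in erlotinib-resistant cells and 16.8 in vehicle cells. ERBB2 stood at 37.1, 29.5 and 37.8 FPKM in the same order, level between the dual-resistant and vehicle libraries. Genes within the length of the window below it numbered 26, with a median log2 difference against the erlotinib-resistant library of -0.09, of which 5 were higher and 3 lower by 2-fold. The same length above held 99 genes with a median of 0.03, of which 13 were higher and 11 lower. Over the rest of chromosome 17 the median was 0.17, in 767 genes. A running median of 11 neighbouring genes that reached 5 FPKM in any library peaked at DDX52 on chromosome 17, at 1.43 for the dual-resistant against the erlotinib-resistant library and 1.78 against vehicle. Outside the window it reached at most 1.08, at FOXK2, and 1.17, at GJC1. Since the window was placed where the dual-resistant values were raised, a peak inside it follows from that choice and is a description only. For the erlotinib-resistant against the vehicle library the running median reached 0.36 in the window and 0.76 outside it.

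**Figure D3:**
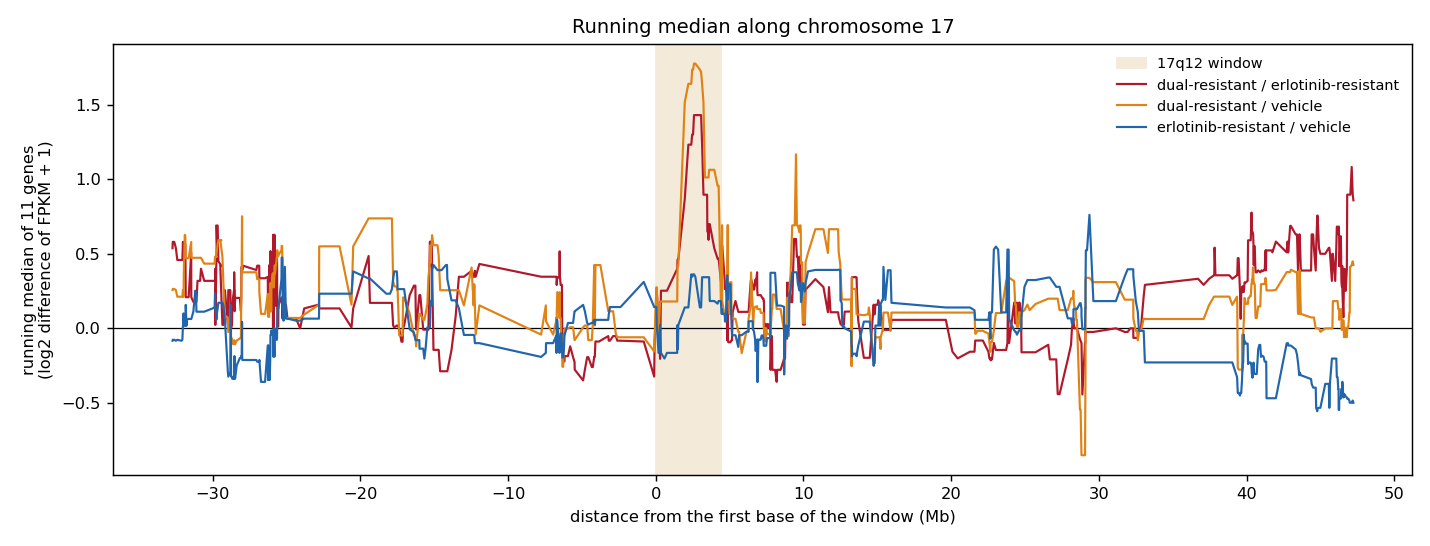
Running median of 11 neighbouring genes along chromosome 17, as log2 difference of FPKM + 1, against distance in Mb from the first base of the window, which is shaded, for the 3 comparisons. Both comparisons of the dual-resistant library, whose values placed the window, reach 1.43 and 1.78 inside it, and the erlotinib-resistant against vehicle line stays at or below 0.36 there.

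Several members belong to complexes or pathways whose other genes lie elsewhere, and their values are given side by side. The members were picked by a window raised in the dual-resistant library and the partners were not, so a member lying above its partners in that library's comparisons is a description and supports nothing further. TADA2A, 2.47-fold higher in the dual-resistant than in the erlotinib-resistant library, lay above all 10 listed genes of the ADA2A-containing complexes, of which none was higher or lower by 2-fold (median -0.01). PSMB3, at a log2 difference of 1.04, lay above all 6 other proteasome beta subunits (median 0.31), none of which passed the limit. CDK12, at 0.98, lay above its cyclin partner CCNK and its paralogue CDK13, which had -0.59 and 0.36. MED1, at 0.47, lay above 23 of 28 other Mediator subunits, and against vehicle, at 1.40, above all 28, of which none passed the limit in either comparison. In the erlotinib-resistant against the vehicle library MED1, at 0.94, was again above all 28. ACACA, at 1.64, lay above all 5 measured partners in fatty acid synthesis, but these went both ways: ACLY, which supplies acetyl-CoA, was 2.03-fold higher in the dual-resistant than in the erlotinib-resistant library, and the regulator SREBF1 was lower, at a log2 difference of -1.31. Other members sat among their partners. AP2B1 lay above 2 of 4 AP-2 subunits and PGAP3 above 4 of 20 genes of GPI anchor synthesis, whereas PIGW lay above 19 of those 20. PCGF2, inside the AATF to CDK12 stretch, lay above 12 of 15 genes of Polycomb complex PRC1 (median -0.11). Of the 9 genes measured on the ERBB2 side, 1 was higher, ORMDL3, and 1 lower, the adaptor GRB7, with a median of 0.32.

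**Figure D4:**
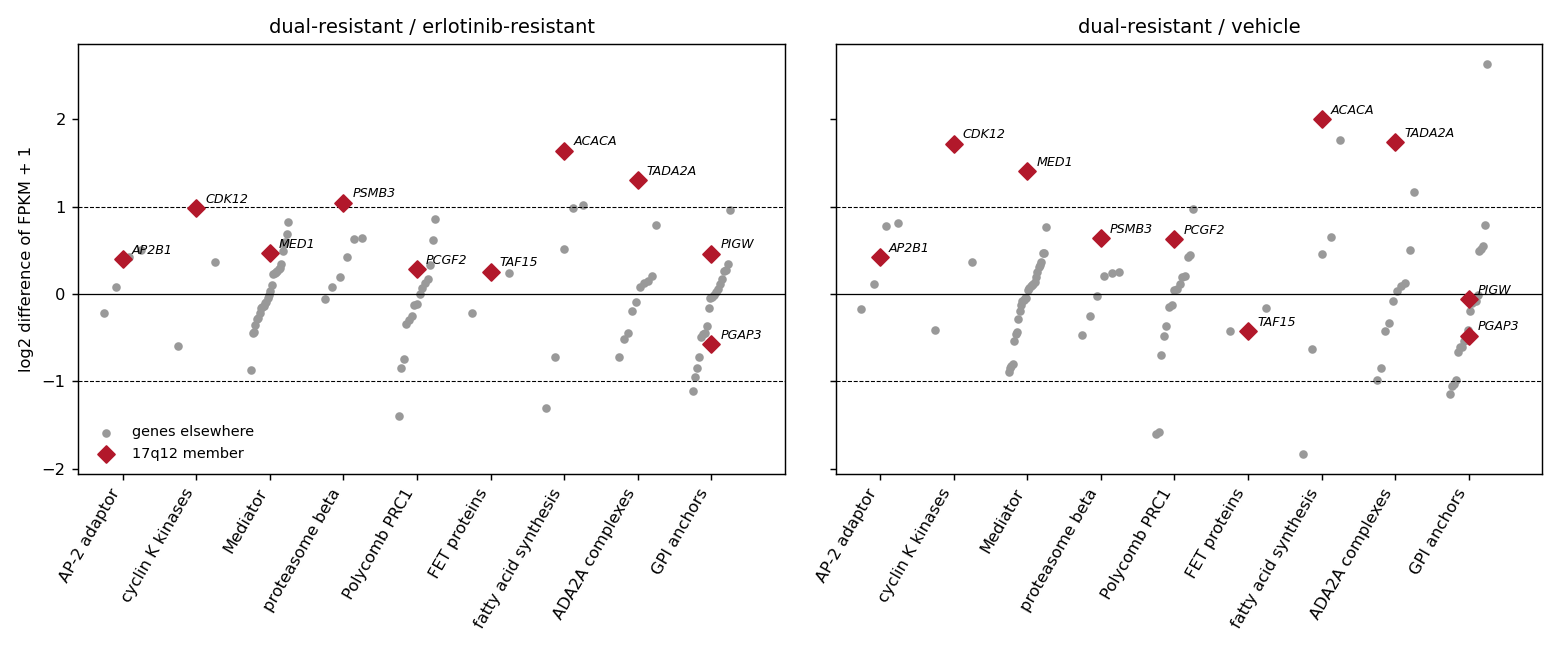
Log2 difference of FPKM + 1 for members (red diamonds) beside the genes of the same complex or pathway that lie outside the window (grey points), for the dual-resistant against the erlotinib-resistant library on the left and against the vehicle library on the right, with the 2-fold limits dashed. CDK12, PSMB3, ACACA and TADA2A lie above every partner shown in both panels, and AP2B1 lies among its own.

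The members under 1 FPKM in every library give no counts above. C17orf78, which overlaps ACACA over 16678 bases, had 0.434 FPKM in dual-resistant cells, 0.0200 in erlotinib-resistant cells and 0.0147 in vehicle cells. This overlap is of whole gene spans, and whether exons overlap was not examined. Some reads of C17orf78 and ACACA may not be told apart without strand, on which the sources used here give nothing. LHX1, a homeodomain factor next to AATF, stood at 0.625, 0.753 and 0.583 FPKM in the dual-resistant, erlotinib-resistant and vehicle libraries, and PLXDC1, a plexin-domain protein, at 0.376, 0.0446 and 0.112 FPKM. Both are low, and LHX1 was level beside a neighbour that was not. The TBC1D3 genes and CCL3L1, CCL3L3 and CCL4L1 have near-identical copies on several rows, so their values near 0 are uncertain, and LOC440434 (now NPEPPSP1), a pseudogene that overlaps TBC1D3, stood at 7.38, 8.13 and 4.48 FPKM in the dual-resistant, erlotinib-resistant and vehicle libraries. Among the genes from AATF to CDK12 that reached 1 FPKM, LOC440434 was the only one lower in the dual-resistant than in the erlotinib-resistant library. ZNHIT3 with MYO19, MYO19 with PIGW, and CISD3 with PCGF2 also overlap, and reads in the shared bases may be split between them.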

How the data were processed

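Gene expression was taken from the deposited table, in which the authors give FPKM for 1 library of each population. Reads were processed with TopHat 1.3 and Cufflinks 1.3 on GRCh37, per the submitters' processing notes. For gene set, strandedness and settings, the value is not given in the sources used here. In the deposited table there are 31402 rows and 30866 symbols. Missing cells (36 dual-resistant, 25 erlotinib-resistant, 35 vehicle) were left out, and no member has one. Starts were taken to count from 0, since end minus start equals the RefSeq gene length for 3772 of 22386 genes and one base less for 425. Coordinates are printed from 1.

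From these values, rows sharing a symbol were summed, genes reaching 1 FPKM in any library entered the comparison, and log2 differences of FPKM + 1 came from Python 3.11.15 and pandas 2.3.3. The deposited FPKM hold no counts. The worth of 1 fragment was estimated as percentile 1 of FPKM times length over single-exon genes of 1 to 5 kb. An exact 0 may be a failed estimate: of genes at 5 FPKM or more in the other two, the dual-resistant library has 23 of 8484 at 0, the erlotinib-resistant 11 of 8227 and the vehicle 13 of 8401. Recovery of known differences was tested on simulated data in which the libraries were otherwise identical, with no noise. It checks the code and says nothing of variation between libraries. Members, lists, partner genes and the rule for named genes (largest differences, highest levels, both ends of the window, up to 4 per list) were chosen with earlier results of these data known. Genes outside that rule (LOC440434, MLLT6, PCGF2, LHX1, C17orf78, PLXDC1, partners) were named after their values were seen. Promoters came from RefSeq, GRCh38.p14, and motif searches and the split by position were added after the values were seen. Some genes are counted in totals but not reported here by name or in figures. Alternatives were scaling, pseudocount, filters, row handling, the limit, flank length and running-median width.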

Additional observations from a re-analysis of the deposited data

How the results depend on the processing

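No paired analysis was possible because each population has 1 library. With 1 library a group, no library could be left out. Counts of members higher by 2-fold kept within 1.5 times under both scalings, a pseudocount of 0.1, the other filters, single rows and every row of the window kept, with 14 to 17 against the erlotinib-resistant and 17 to 21 against the vehicle library. A limit of 1.5-fold gave 24 members higher in the dual-resistant against the erlotinib-resistant library and 8 in the erlotinib-resistant against the vehicle library, and leaving out genes listed at 0 gave 1 in the erlotinib-resistant against vehicle comparison. With no filter on low values each of the 3 medians was 0.00, since most members were listed at 0. At 5 FPKM the dual-resistant against vehicle median was 1.003, and with equal library sums the erlotinib-resistant against vehicle median was 0.30. By the split made after the values were seen, dual-resistant against erlotinib-resistant medians were 0.025 from RAD51D to MRM1, 0.98 from AATF to CDK12 and 0.13 past CDK12. Against vehicle they were 0.16, 1.52 and 0.24, and for the erlotinib-resistant against the vehicle library -0.14, 0.34 and 0.11. Counts higher in the dual-resistant against the erlotinib-resistant library were 3, 12 and 0, against vehicle 1, 17 and 0, and for the erlotinib-resistant against the vehicle library 0, 2 and 0. With flanks of 0.5 times the length, the median above the window was 0.15 against the erlotinib-resistant library and that below it -0.21 against vehicle. Running medians of 7 and 21 genes peaked in the window at 1.5 and 1.18 against the erlotinib-resistant library and 2.00 and 1.64 against vehicle. The cause of these changes was not tested where none is given.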
